A study of Oryzias latipes with 18 samples.

Results

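The genes c-fos (ENSORLG00000024739), fosb (ENSORLG00000028302) and dusp2 (ENSORLG00000003043) were followed library by library through 6 groups of medaka testis. They are 3 of the 22941 genes of the expression table, each matched by its name to a single row. They were selected on measured values of these same libraries: all 3 had stood out for higher values at 0.002 mg/L PFOS in the control lineage, and the c-fos levels at 0 mg/L in both lineages and at 0.02 mg/L in the control lineage had been looked at as well. Values that involve the control lineage at 0 or 0.002 mg/L are therefore given below as a description, without a test. c-fos is described without a test throughout, and tests are given for fosb and dusp2 in the 3 comparisons whose means use neither of those groups. The spread of each gene was estimated over all 6 groups, so those 2 groups still enter each SE, interval and p of these tests.

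Immediate-early genes are transcribed within minutes of a signal, from factors already present in the cell, and their mRNAs are short-lived. The proteins of c-fos and fosb pair with Jun proteins to form AP-1, a dimeric transcription factor that acts downstream of the ERK, JNK and p38 MAP kinases. In mammals DUSP2 is a nuclear phosphatase that removes phosphate from MAP kinases, so that its induction limits the signal that induced it. Fos and Jun genes are known from mammalian work to respond to growth factors, stress and tissue handling, and in testis they have been described in both somatic and germ cells.

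PFOS, short for perfluorooctane sulfonate, is a fluorinated surfactant that breaks down very slowly, and BPA, short for bisphenol A, is a plastic monomer with estrogenic activity. Fish of the BPA lineage trace back, 4 generations earlier, to embryos kept in BPA at 10 µg/L. These fish spent 21 days in water that held 0, 0.002 or 0.02 mg/L of PFOS. Fish of a control lineage, with no BPA in their ancestry, were kept at the same 3 concentrations. Each group had 3 libraries, which the labels call biological replicates without saying how many fish gave each, so that spread between libraries is the only error available. Values are normalized reads, that is, the reads of a gene divided by 1 size factor per library, and differences are on the scale of log2(normalized reads + 1).

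The libraries held 23.7M to 47.7M reads (M, 10 to the power 6). The library labelled control lineage 0.002 mg/L replicate 2 stood apart. The summed level of 8 measured oocyte and ovary markers was 774388 normalized reads in it, against 311 to 6923 in the other 17. Its sums for 7 Sertoli cell markers (8339, against 33455 to 67587) and 7 spermatid markers (3603, against 27011 to 42282) lay below those of the other 17. Results that rest on it are given with and without it, and counts from a fit to the other 17 libraries stand beside those from all 18. For the tests of fosb and dusp2 the SE and interval are from all 18, with the lowest adjusted p when 1 library was left out. In the control lineage at 0 mg/L, 8 gut, pancreas and kidney markers summed to 40019 normalized reads in replicate 1, 1394 in replicate 2 and 40509 in replicate 3. The sums of the 15 libraries outside the group ran from 170 to 825. In whole-organ RNA, fewer cells of a type and less RNA per cell cannot be told apart.

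c-fos, the DNA-binding partner of Jun in AP-1, was low in 1 group and variable in most others. Its normalized reads were 4751, 1824 and 165 in replicates 1, 2 and 3 of the BPA lineage without PFOS. The same lineage had 2195, 2679 and 299 at 0.002 mg/L, then 408, 419 and 4549.6 at 0.02 mg/L. Each BPA-lineage group thus held both high and low libraries, in a different order of replicates at each concentration.

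Control-lineage testes had 35.0, 79.3 and 82.4 normalized reads of c-fos without PFOS, 7982, 3481 and 2516 at 0.002 mg/L, then 1108, 1558 and 1139 at 0.02 mg/L. All 3 libraries at 0 mg/L lay below each of the other 15, the lowest of which was the 165 of BPA-lineage replicate 3 at 0 mg/L. Replicate 2 at 0 mg/L, with the low sum of gut, pancreas and kidney markers, had a c-fos value (79.3) between those of replicates 1 and 3, whose sums were high. The part of those transcripts in the low level was not tested further. The 2 exposed groups did not overlap each other either, and the highest value of the 18 libraries was in replicate 1 at 0.002 mg/L. The share of all genes separated in these ways is not given, so the separations do not set c-fos apart.

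Group means of c-fos were 4659.8 ± 2918 normalized reads in the control lineage at 0.002 mg/L, 2247 ± 2322 in the BPA lineage at 0 mg/L, 1792 ± 2388 and 1724 ± 1258 in the BPA lineage at 0.02 and 0.002 mg/L, 1268 ± 251 in the control lineage at 0.02 mg/L and 65.6 ± 26.5 in the control lineage at 0 mg/L (SD, n = 3 each). In that order each group overlapped the next, apart from the last pair. The ratio of the highest to the lowest library was 28.8, 8.95 and 11.1 in the BPA lineage from the lowest to the highest concentration, and 2.35, 3.17 and 1.41 in the control lineage. The SD of the BPA-lineage groups was thus close to or above their mean at 0 and 0.02 mg/L.

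fosb, a Fos family member that also dimerizes with Jun proteins, was high in fewer libraries. Libraries of the BPA lineage had 745, 170.0 and 134 normalized reads without PFOS, 896, 68.5 and 76.3 at 0.002 mg/L, then 90.3, 47.0 and 162 at 0.02 mg/L. Those of the control lineage had 46.5, 84.2 and 60.1 without PFOS, 2974, 33.8 and 585 at 0.002 mg/L, then 103, 111 and 57.5 at 0.02 mg/L. Values above 500 occurred in 4 libraries, of which 3 were replicate 1 of their group. The lowest value of the 18 libraries was the 33.8 of the library that stood apart, and without it the control lineage at 0.002 mg/L averaged 1779.7 ± 1689 (SD, n = 2). Ordered by their means (1198 in the control lineage at 0.002 mg/L to 63.6 in the control lineage at 0 mg/L), all neighbouring groups of fosb overlapped.

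dusp2, the MAP kinase phosphatase, was read at low counts outside 1 group. BPA-lineage testes had 126, 36.6 and 27.8 normalized reads without PFOS, 47.2, 24.4 and 6.52 at 0.002 mg/L, then 27.2, 9.82 and 42.2 at 0.02 mg/L. Control-lineage testes had 23.6, 18.6 and 34.4 without PFOS, 309, 4712 and 157 at 0.002 mg/L, then 52.9, 40.2 and 14.7 at 0.02 mg/L. Only the control lineage at 0.002 mg/L overlapped no other group, since its lowest library (157) exceeded the highest of the other 15 (126). The share of all genes separated in this way is not given, and these values chose the gene, so the separation does not set dusp2 apart. The value of 4712 came from the library that stood apart, and the other 2 libraries of the group averaged 233 ± 107 (SD). The other 5 groups, with means from 25.5 to 63.4, overlapped their neighbours. The lowest dusp2 value rested on 10 reads and the highest on 3489, so that counting error was larger for dusp2 than for c-fos, whose reads ran from 55 to 11356.

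**Figure D1:**
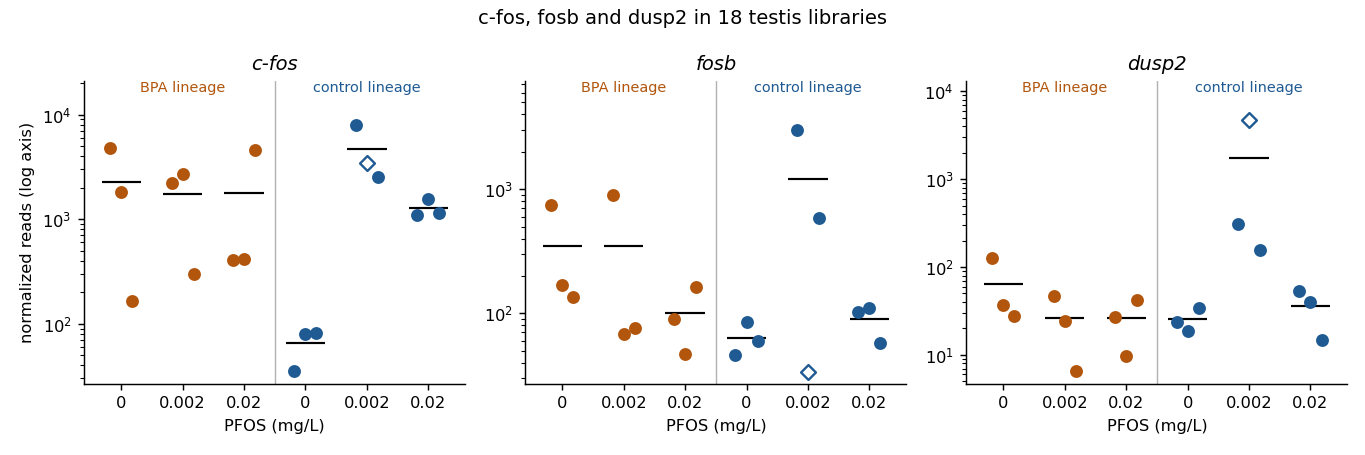
Normalized reads (log axis) of c-fos, fosb and dusp2 in each of 18 testis libraries, by PFOS concentration (mg/L), with the BPA lineage left of the control lineage in each panel. Points are libraries in the order of replicates 1 to 3, bars are arithmetic group means, and the open diamond is the library labelled control lineage 0.002 mg/L replicate 2, which was lowest of 18 for fosb (33.8) and highest of 18 for dusp2 (4712).

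The first tested question was whether PFOS changed fosb and dusp2 in the BPA lineage. Neither passed the threshold of 0.05 at either concentration in limma, with Benjamini-Hochberg adjustment over all genes tested. At 0.002 against 0 mg/L fosb differed by -0.61 ± 1.24 (SE), with a 95% interval of -3.23 to 2.0, and dusp2 by -1.30 ± 1.04, with an interval of -3.50 to 0.90, both with an adjusted p of 1.0. Intervals this wide do not show that the levels stayed the same. The spread behind them was pooled over all 18 libraries. Without the library that stood apart the pooled SD within groups fell from 1.73 to 1.26 for fosb and from 1.41 to 1.0 for dusp2. With 1 library left out in turn, that one among them, the lowest adjusted p in limma was 0.866 for fosb and 0.599 for dusp2. The c-fos difference, given as a description, was 0.10 ± 1.1. The sign was not stable for c-fos, which was -1.28 without replicate 3 at 0 mg/L and -0.33 and -0.48 without replicate 1 or 2 at 0.002 mg/L, nor for fosb, which was 0.15 without replicate 1 at 0 mg/L. In this comparison limma called 0 of 18792 genes (0%), with 715 at an unadjusted p under 0.05, while edgeR called 0 and DESeq2 10. From 17 libraries it again called 0 (0%), with 1795 at an unadjusted p under 0.05 and 0 by edgeR.

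At 0.02 against 0 mg/L in the BPA lineage the differences were -1.53 ± 1.24 for fosb (adjusted p = 0.773) and -1.13 ± 1.04 for dusp2 (adjusted p = 0.819) in limma. Their 95% intervals ran from -4.14 to 1.08 and from -3.32 to 1.07. With 1 library left out in turn, the lowest adjusted p in limma was 0.382 and 0.426. c-fos, not tested, differed by -0.29 ± 1.1. limma called 0 genes here too (0%), with 1596 at an unadjusted p under 0.05, 0 by edgeR and 144 by DESeq2, and 77 (0.41%) from 17 libraries. The direction for c-fos rested on single libraries. Without replicate 1 or 2 at 0 mg/L, or replicate 1 or 2 at 0.02 mg/L, it was positive (0.74, 0.05, 0.29 and 0.27), and without replicate 3 of either group it was -1.68 or -1.44.

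At 0.02 mg/L the BPA and control lineages were compared as well. The differences were 0.02 ± 1.24 for fosb and -0.47 ± 1.04 for dusp2, BPA lineage minus control lineage, each with an adjusted p of 1.0 in limma. The 95% intervals were -2.59 to 2.64 and -2.67 to 1.73. With 1 library left out in turn, the lowest adjusted p in limma was 0.994 and 0.835. For c-fos the difference, without a test, was -0.44 ± 1.1. Its arithmetic mean was higher in the BPA lineage (1792 ± 2388) than in the control lineage (1268 ± 251), while the difference of log2 values was negative, because 1 BPA-lineage library had 4549.6 normalized reads and the other 2 had 408 and 419. limma called 3 genes in this comparison (0.016%), and 4 from 17 libraries (0.0213%).

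The remaining 4 comparisons hold values that chose the genes. In the control lineage at 0.002 against 0 mg/L the fitted differences were 6.05 ± 1.1 for c-fos, 2.65 ± 1.24 for fosb and 4.57 ± 1.04 for dusp2. Without the library that stood apart they were 6.17, 4.40 and 3.10, so that this library lowered the fosb difference and raised that of dusp2. The 2 groups did not overlap for 2 of the 3 genes, c-fos and dusp2. The share of all genes without overlap is not given for this comparison or those below, so non-overlap does not set these genes apart. At an unadjusted p under 0.05 in limma there were 6174 of 18792 genes from 18 libraries. limma called 1476 genes (7.85%) in this comparison from 18 libraries and 863 (4.59%) from 17.

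At 0.02 against 0 mg/L in the control lineage the differences were 4.33 ± 1.1 for c-fos, 0.49 ± 1.24 for fosb and 0.35 ± 1.04 for dusp2, and the groups were apart for c-fos only. limma called 13 genes there (0.0692%), and 2409 (12.8%) from 17 libraries. Between the BPA and control lineages the differences at 0 mg/L were 4.18 for c-fos, 2.04 for fosb and 1.0 for dusp2, with no overlap for c-fos and fosb, against 4 genes called (0.0213%) and 1927 (10.3%) from 17 libraries. At 0.002 mg/L they were -1.77, -1.22 and -4.87, and -1.89, -2.97 and -3.40 without the library that stood apart. Only dusp2 did not overlap there, and limma called 0 genes (0%) from 18 or 17 libraries, with 2829 and 1583 at an unadjusted p under 0.05, 0 by edgeR in both and 804 by DESeq2 from 18. These comparisons share control-lineage groups with each other, so the rows of differences are not independent.

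**Figure D2:**
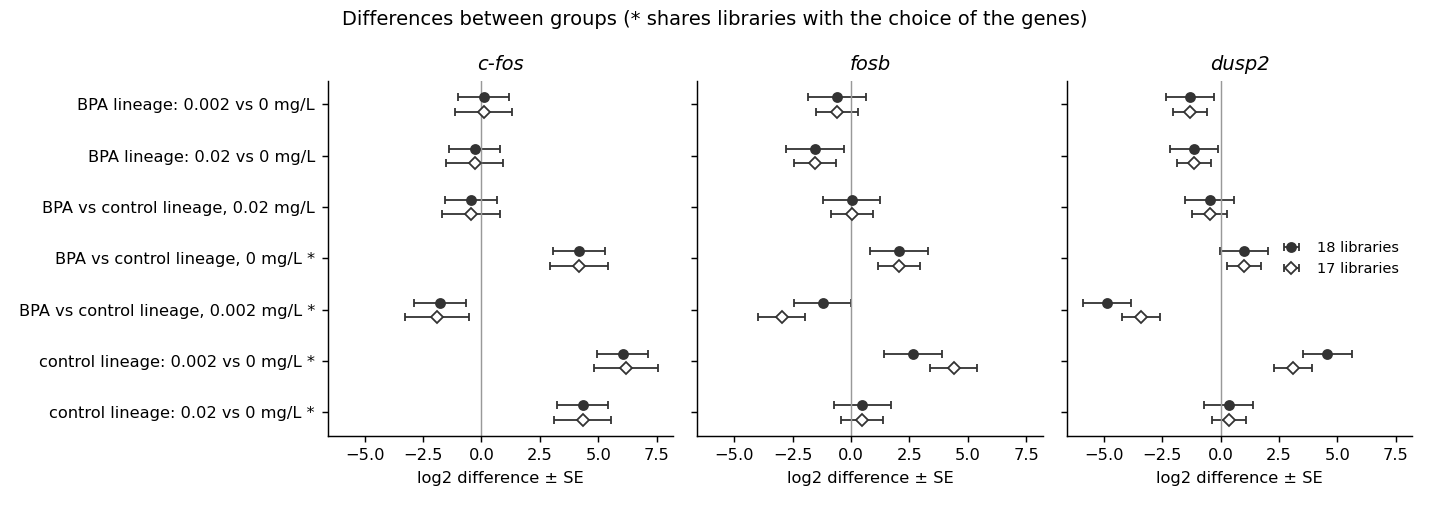
Differences of c-fos, fosb and dusp2 on the log2(normalized reads + 1) scale for 7 comparisons, with bars of ± 1 SE from limma. Filled circles are fits to 18 libraries and open diamonds fits to the 17 without control lineage 0.002 mg/L replicate 2; asterisks mark comparisons that share libraries with the choice of the genes, among them the 6.05 and 6.17 of c-fos at 0.002 against 0 mg/L in the control lineage, while the upper 3 rows have c-fos differences from -0.44 to 0.10. c-fos was not tested in any row.

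The 3 genes differed between replicates of one group more than most genes did. The pooled SD within groups was 1.56 for c-fos, 1.73 for fosb and 1.41 for dusp2 on the log2 scale over 18 libraries, against a median of 0.53 over the 14869 genes with a mean of at least 50. A larger SD was found for 3.49%, 2.52% and 4.58% of those genes. dusp2 reached a mean of 50 only through the control lineage at 0.002 mg/L, since it averaged 35.5 over the other 15 libraries. Its place among those genes thus rests on values that chose it. Without the library that stood apart the SDs were 1.62, 1.26 and 1.0, against a median of 0.34. In the 9 BPA-lineage libraries, c-fos had an SD of 2.10 and only 42 of the 14869 genes (0.282%) had a larger one. A wide spread was not particular to the 3 genes. Over 18 libraries the SD was 1.76 for ier2b, 1.68 for nr4a1, 1.52 for egr1, 1.45 for jun and 1.44 for junbb, but 0.64 for dusp6, 0.62 for fosaa and 0.30 for fosl1a. Of these, nr4a1 and fosaa had means of 17.9 and 11.6, below 50, and their lowest libraries held 1 and 3 reads. Counting error thus enters the SD of both. This is a description, since genes with high values in some libraries were chosen.

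Sums of cell type markers were set beside c-fos in the BPA lineage. At 0 mg/L in the BPA lineage, where c-fos was 4751, 1824 and 165, the leukocyte markers (6 of 8 measured) summed to 1178, 1762 and 1042 normalized reads, the endothelial markers (5 of 6) to 699, 1029 and 773, and the smooth muscle and connective tissue markers (6 of 8) to 17596, 21793 and 20069. At 0.02 mg/L in the same lineage, where c-fos was 408, 419 and 4549.6, the same sums were 1047, 558 and 525, then 664, 428 and 721, then 14264, 6629 and 8755. The replicate with the highest c-fos thus had the lowest leukocyte but the highest endothelial sum of its group at 0.02 mg/L, and the lowest endothelial and smooth muscle sums at 0 mg/L. At 0.002 mg/L c-fos was highest in replicate 2 and lowest in replicate 3. The 3 sums there were 537, 738 and 570, then 442, 707 and 437, then 10662, 10480 and 9590. Leukocyte and endothelial sums were thus highest in replicate 2, and endothelial and smooth muscle sums lowest in replicate 3. The 2 measured of 7 Leydig cell markers were lowest in replicate 3 at 0 mg/L and highest in replicate 3 at 0.02 mg/L, as c-fos was, with 2448, 2780 and 1091 normalized reads at 0 mg/L, 1699, 829 and 1520 at 0.002 mg/L, then 1159, 526 and 2888 at 0.02 mg/L. Unlike c-fos, they were highest in replicate 2 at 0 mg/L and lowest in replicate 2 at 0.002 mg/L. Sertoli cell sums were highest, and spermatogonia sums lowest, in replicate 3 at each concentration. At 0.02 mg/L replicate 3 also had the highest sums for blood (578, against 30.4 and 182), spermatocytes (43012, against 30620 and 30703) and spermatids (40969, against 32630 and 27011). At 0 mg/L blood was 275, 874 and 436, lowest in the replicate with the highest c-fos, and at 0.002 mg/L 88.3, 245 and 141. Spermatocyte sums at these concentrations were 30603, 29789 and 24980, then 36131, 27235 and 27582. Spermatid sums were 28593, 31128 and 30324, then 36805, 32848 and 32864. cdh5 of the endothelial list, alas2 of the blood list and tekt1 of the spermatid list were at 0 in some library, and the part of such cells in the c-fos values was not tested. Replicate 3 at 0.02 mg/L also had 47.7M reads, the most of all libraries, and whether handling or time to freezing differed between libraries was not tested, as the labels give neither.

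The genes most like c-fos across libraries were looked for among 11404 named genes with a mean of at least 50. These correlations are descriptions over libraries that share a scaling. First in rank was junbb, a JunB gene whose protein is a dimer partner of Fos, with Pearson r = 0.91 over 18 libraries, 0.94 over 17 and 0.99 over the 9 BPA-lineage libraries. In BPA-lineage testes junbb had 3803, 1081 and 212 normalized reads without PFOS, 1548, 1707 and 297 at 0.002 mg/L, then 364, 264 and 2854 at 0.02 mg/L. Control-lineage testes had 199, 184 and 317 without PFOS, 5874, 698 and 1898 at 0.002 mg/L, then 936, 898 and 780.2 at 0.02 mg/L. In each BPA-lineage group the libraries with high c-fos were thus those with high junbb, and with group means subtracted, so that only differences among replicates remained, r was 0.97 over 17 libraries.

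The next 4 by likeness to c-fos over 18 libraries were gkap1 (0.87), trappc4, abraxas2 and ube2v2 (0.84 each). Over 17 libraries the second place was taken by ier2b, an immediate-early gene, with r = 0.94, against 0.61 over 18. ier2b had 1022, 267 and 76.7 normalized reads in the BPA lineage without PFOS, 419.6, 669 and 101 at 0.002 mg/L, then 201, 154 and 989 at 0.02 mg/L. Its r with c-fos was 0.97 in those 9 libraries. The zinc-finger factor egr1 and the AP-1 subunit jun had r = 0.87 and 0.85 with c-fos over 17 libraries, against 0.69 and 0.56 over 18. egr1 had 688, 238 and 147 normalized reads in the BPA lineage without PFOS, 300.1, 276 and 41.7 at 0.002 mg/L, then 94.3, 67.3 and 491 at 0.02 mg/L. The phosphatase gene dusp1, with an r of 0.72 over 17 libraries, had 862, 741 and 3156 at 0.02 mg/L in that lineage, again highest in replicate 3. At 0 mg/L it was highest in replicate 1 and lowest in replicate 3, as c-fos was. At 0.002 mg/L it was instead highest in replicate 3, where c-fos was lowest. It shared its highest library with c-fos in 3 of the 6 groups.

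fosb and dusp2 followed c-fos less closely. Over 17 libraries r with c-fos was 0.67 for fosb and 0.60 for dusp2, and over 18 it was 0.57 and 0.54. Of the 6 groups, c-fos and fosb had their highest value in the same library in 4, and c-fos and dusp2 in 3, while c-fos shared it with junba in all 6 and with junbb, egr1 and ier2b in 5. It was also shared with dusp6 in 4 and elk4 in 3, whose r with c-fos over 17 libraries was -0.11 and -0.46. With group means subtracted over 17 libraries, r with c-fos was 0.61 for fosb, 0.73 for dusp2, 0.57 for dusp6 and -0.22 for elk4. The count of 3 was thus reached by genes with r of 0.73 and -0.22 by that measure, so it does not by itself show likeness to c-fos. The count of 4 for dusp6 went with r of either sign, depending on whether group means were subtracted. fosb and dusp2 had r = 0.28 over 18 libraries and 0.85 over 17. That difference came from the library that stood apart, in which fosb was lowest and dusp2 highest of 18.

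**Figure D3:**
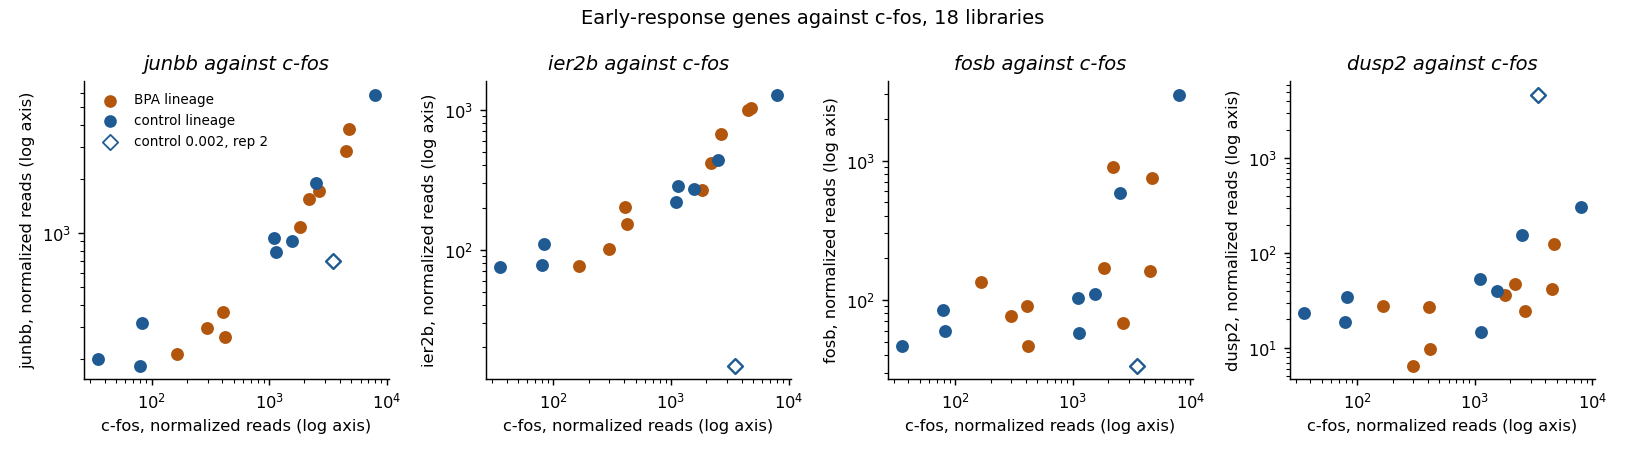
Normalized reads (log axes) of junbb, ier2b, fosb and dusp2 against those of c-fos, 1 point per library, for the BPA and control lineages. The open diamond, control lineage 0.002 mg/L replicate 2, has 3481 normalized reads of c-fos but 14.9 of ier2b and 33.8 of fosb, below the other 17 libraries, and 4712 of dusp2, above them.

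By the same measure the genes most like fosb over 18 libraries were klf6a (0.88), jdp2b (0.87), egr1 (0.84), jun (0.83) and junba (0.76). Of these klf6a is a Krüppel-like immediate-early factor, jdp2b encodes a Jun dimerization protein, and jun and junba encode AP-1 subunits. Over 17 libraries their r was 0.87, 0.89, 0.82, 0.85 and 0.73, so this r was close to the same without the library that stood apart. With group means subtracted, r was 0.82, 0.84, 0.86, 0.88 and 0.76 over 18 libraries. By that measure it was lower over 17, at 0.65, 0.79, 0.73, 0.73 and 0.52. For dusp2 the first 5 over 18 libraries were c-myc17, C5orf63, itm2cb, mfsd2ab and slc15a4, with r from 0.87 to 0.92. All 5 had their highest value of 18 in the library that stood apart, for example 12335 normalized reads of c-myc17, against 1069.6 to 3806 in the others. Over 17 libraries the genes first in rank for dusp2 were egr1 (0.86), fosb (0.85), jun (0.80) and junba (0.79), with c-myc17 still in place 5 (0.78). That order was read after the values were seen.

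The library that stood apart had a mixture of high and low immediate-early genes. Its c-fos (3481) was exceeded in 3 of the other 17 libraries and its dusp2 in none. Its fosb (33.8), egr1 (32.4), jun (48.6), ier2b (14.9) and dusp1 (288) were each below all 17 others, and its junbb (698) was above 7 of them. The high c-fos and dusp2 in it thus stood beside low values of some genes that moved with c-fos elsewhere. Other such genes were high in it. Its csrnp1a (4774, r = 0.78 with c-fos over 17 libraries) was above all 17 others. Its fosl1a (423, r = 0.68) was above 15 of them. With this library left out, both other control-lineage libraries at 0.002 mg/L were higher than each at 0 mg/L for junbb (5874 and 1898, against 184 to 317), egr1 (1258 and 348, against 45.8 to 92.8), ier2b (1284 and 437, against 75.1 to 111) and jun (2014 and 759.6, against 151 to 282). The share of all genes separated in this way is not given, so the separation does not set these genes apart.

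**Figure D4:**
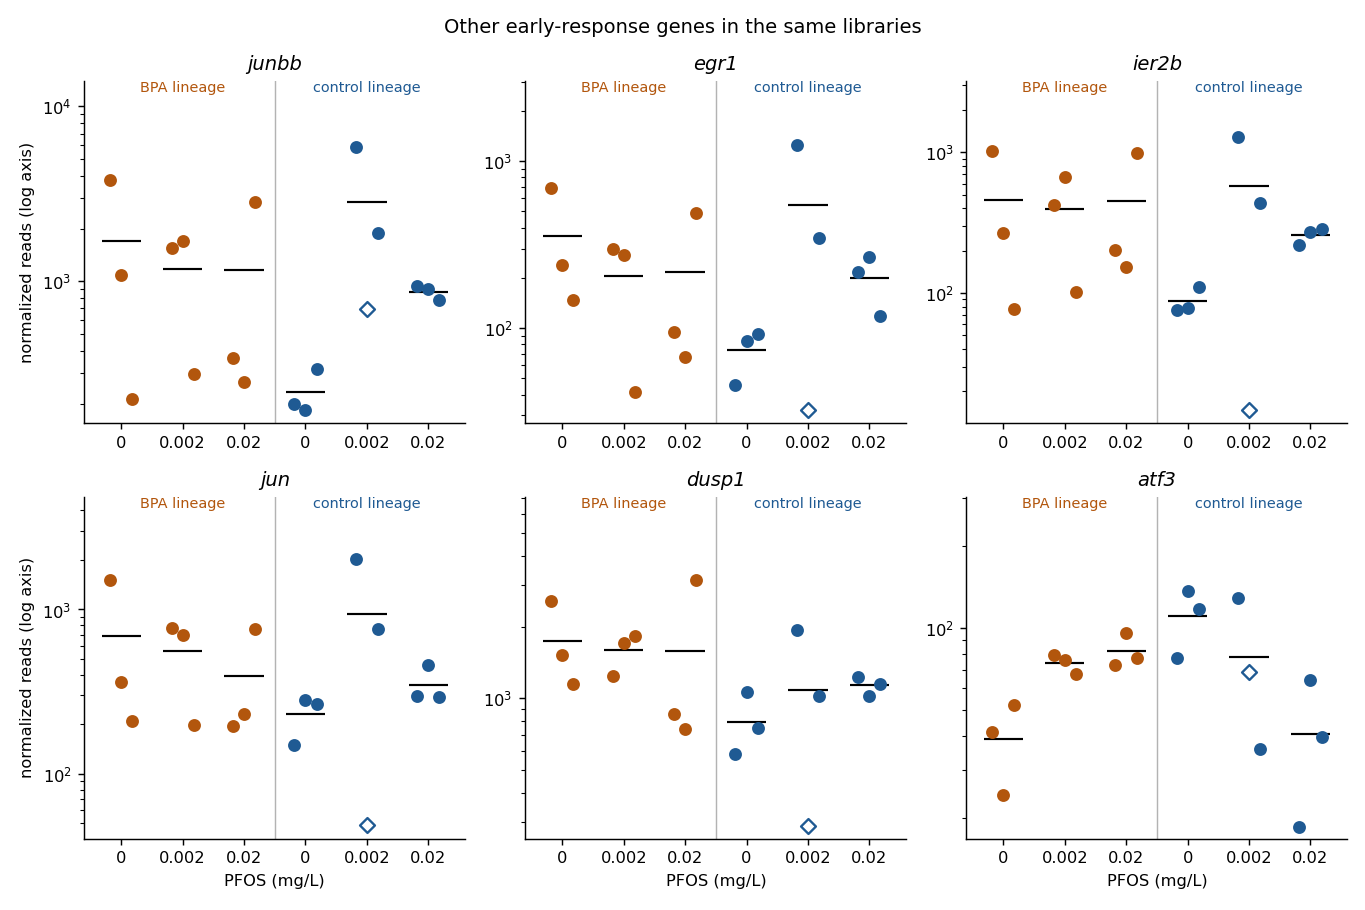
Normalized reads (log axis) of junbb, egr1, ier2b, jun, dusp1 and atf3 by library, laid out as for the 3 genes above, with bars at group means and an open diamond for control lineage 0.002 mg/L replicate 2. In the BPA lineage at 0.02 mg/L replicate 3 is the highest of its group for junbb (2854), egr1 (491), ier2b (989), jun (763) and dusp1 (3156) but not for atf3 (77.7).

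The other genes of the pathway were taken from lists. Of 21 listed AP-1 symbols other than c-fos and fosb, 12 were measured and all 12 were tested. limma called 0 of the 12 in any of the 7 comparisons, from 18 or from 17 libraries, beside shares of all genes that ran from 0% to 12.8%. At an unadjusted p under 0.05 there were 0 to 2 of them per comparison from 18 libraries and 0 to 5 from 17. edgeR called 1 at 0.002 against 0 mg/L in the control lineage, and DESeq2 3 there, beside 16.7% and 25.2% of all genes by these tools. DESeq2 also called 1 at 0.02 against 0 mg/L in that lineage and 2 between lineages at 0 mg/L, beside 6.74% and 7.12% of all genes by DESeq2, and 0 elsewhere. At 0.002 against 0 mg/L in the control lineage the median difference of the 12 was 0.45 from 18 libraries, beside -0.15 over all genes, and 0.58 beside 0.01 from 17. The difference of junbb was 3.12 ± 1.02 (limma, adjusted p = 0.0623) from 18 libraries and 3.88 ± 1.18 (adjusted p = 0.071) from 17. atf3, a stress-responsive AP-1 partner, had r = -0.30 with c-fos over 17 libraries, but 0.11 with group means subtracted. Its normalized reads in the BPA lineage were 41.3, 24.4 and 51.9 without PFOS, 79.2, 76.1 and 67.8 at 0.002 mg/L, then 72.7, 95.4 and 77.7 at 0.02 mg/L.

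Of 76 listed symbols of other immediate-early genes, 35 were measured and 32 tested. At 0.002 against 0 mg/L in the control lineage 3 of the 32 were called from 18 libraries, beside 7.85% of all genes. csrnp1a, a nuclear protein gene of the early response, was higher (1.13 ± 0.32, adjusted p = 0.0458 in limma), although its value was highest (4774) in the library that stood apart, and it did not pass from 17 libraries. From 17 libraries klf6a was called higher instead (0.91 ± 0.24, adjusted p = 0.0435 in limma), so that 3 of the 32 passed there too, beside 4.59% of all genes. SGK1, the serum- and glucocorticoid-regulated kinase, was lower in both fits (-2.37 and -1.62, adjusted p = 0.0267 and 0.0343). The antiproliferative gene btg1 was lower in both fits too (-2.36 and -2.21, adjusted p = 0.0231 and 0.0291). It was lower at 0.02 against 0 mg/L in the control lineage as well (-2.84, adjusted p = 0.0257 from 18 and 0.0045 from 17 in limma). There 0 and 1 genes of the list were higher from 18 and 17 libraries and 1 and 5 lower, beside 0.0692% and 12.8% of all genes. btg1 had at most 431 normalized reads in the 15 libraries outside the control lineage at 0 mg/L, against 817, 582 and 1408 in that group, so that it was highest in the group in which c-fos was lowest. The calls at 0.002 mg/L rested on single libraries, since limma called 3 genes of the whole table without replicate 1 of the control lineage at 0 mg/L and 1 without replicate 3. Those were the libraries with high sums of gut, pancreas and kidney markers (40019 and 40509 normalized reads). Within that group SGK1 and btg1 were both highest in replicate 3 and lowest in replicate 2, which had the low sum (1394). The part of those transcripts in the calls was not tested. In the BPA lineage 0 of the 32 were called at either PFOS concentration, with 0 to 2 at an unadjusted p under 0.05, 0 by edgeR and, from 18 libraries, 0 by DESeq2. Of all genes, limma called 0% there from 18 libraries and at most 0.41% from 17.

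dusp2 was set beside the other MAP kinase phosphatases. Of 11 listed symbols of other phosphatases of this kind, 8 were measured and tested, and limma called 0 of them in any of the 7 comparisons from either fit. Per comparison 0 to 1 had an unadjusted p under 0.05 from 18 libraries and 0 to 2 from 17, and edgeR called 0 from either set, as did DESeq2 from 18. With 8 genes and shares of all genes between 0% and 12.8% across the comparisons, a count of 0 does not set these phosphatases apart. Their median difference at 0.002 against 0 mg/L in the control lineage was -0.39 from 18 libraries and -0.16 from 17. dusp5, which encodes an ERK phosphatase, had 352, 45.9 and 82.1 normalized reads at 0.002 mg/L in that lineage, against 117, 276 and 139 at 0 mg/L, so the groups overlapped.

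The kinases and transcription factors upstream of c-fos were counted beside the share of all genes called. In the ERK cascade list, 17 of 28 symbols were measured and tested. At 0.002 against 0 mg/L in the control lineage the kinase gene araf was lower from 18 libraries in limma (-1.86 ± 0.50, adjusted p = 0.041), beside 7.85% of all genes, and 0 genes of the list passed from 17, with 4 at an unadjusted p under 0.05 and 0 by edgeR. Between the BPA and control lineages at 0 mg/L, raf1a was higher (0.73, adjusted p = 0.0236) and araf (-1.92, adjusted p = 0.0164) and ksr1a (-0.72, adjusted p = 0.0294) were lower from 17 libraries in limma, beside 10.3% of all genes. Levels of kinase mRNA say nothing of kinase activity.

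In the list of 20 SRF, ETS and CREB factors tested, the ETS factor ELK3 was higher in control-lineage testes at 0.002 against 0 mg/L, from 18 libraries (1.21 ± 0.29, adjusted p = 0.0324 in limma) and from 17 (0.91 ± 0.25, adjusted p = 0.0472), and the SRF coactivator mrtfbb was lower from 18 alone (-2.24 ± 0.63, adjusted p = 0.0444), so that 2 of 20 passed from 18 and 1 from 17, beside 7.85% and 4.59% of all genes. At 0.02 against 0 mg/L in that lineage, from 17 libraries, ELK3 was higher (0.87, adjusted p = 0.024 in limma) and elk4 lower (-2.00, adjusted p = 0.0268), beside 12.8% of all genes. BPA-lineage testes at 0 mg/L had higher ELK3 (1.07, adjusted p = 0.0103) and lower elk4 (-1.79, adjusted p = 0.0401) than control-lineage testes, beside 10.3%. From 18 libraries 0 of the 20 passed in either comparison. The 16 tested genes of the JNK and p38 cascades had 1 higher (map2k7) and 2 lower (map2k4b and mapk11) in that comparison from 18 libraries, beside 7.85% of all genes. From 17 libraries 2 were lower (map2k4b and mapk12a), beside 4.59%. Between the BPA and control lineages at 0 mg/L, 4 of the 16 were lower from 17 libraries (MAPK8, mapk8b, mapk9 and mapk11, by limma differences from -1.60 to -0.76), beside 10.3% of all genes. From 18 libraries 0 passed, with 6 at an unadjusted p under 0.05, 0 by edgeR and 4 by DESeq2, beside 7.12% of all genes by DESeq2. Of 6 tested genes of ERK feedback, SPRED2 was lower from 18 libraries (-2.22 ± 0.60, adjusted p = 0.0406), beside 7.85% of all genes. It was lowest of 18 in the library that stood apart (12.2 normalized reads) and did not pass from 17 (-1.66 ± 0.56, adjusted p = 0.0851). Of 12 heat shock genes 0 were called from 18 libraries in any comparison, beside 0% to 7.85% of all genes, with 0 to 1 at an unadjusted p under 0.05, 0 by edgeR and up to 1 by DESeq2. From 17 libraries 1 was called (hspb8, lower at 0.002 against 0 mg/L in the control lineage), beside 4.59% of all genes. In the BPA lineage 0 genes of these 5 lists passed at 0.002 or 0.02 mg/L from either fit, where from 18 libraries 0 to 2 per list had an unadjusted p under 0.05 and from 17 libraries 0 to 8, and edgeR called 0, as did DESeq2 from 18. Of all genes, limma called 0% there from 18 libraries and at most 0.41% from 17. The 8 were among the 17 ERK cascade genes at 0.02 mg/L, beside 3458 of all 18792 genes at an unadjusted p under 0.05 in that limma fit. From 18 libraries the same list had 1, beside 1596 of all genes.

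**Figure D5:**
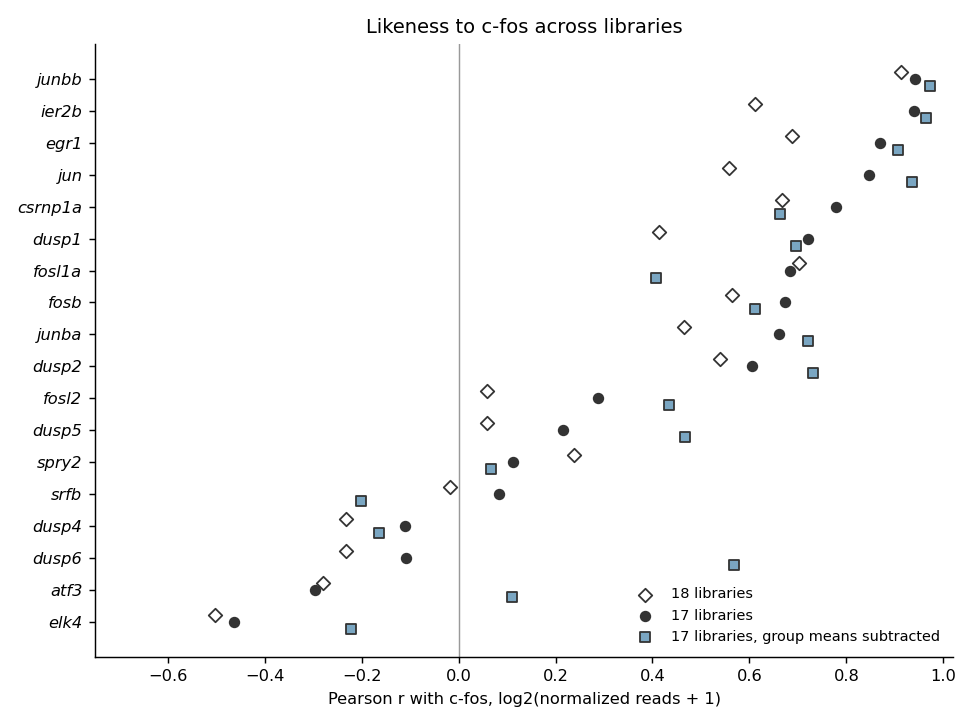
Pearson r of log2(normalized reads + 1) between c-fos and 18 named genes, over 18 libraries (open diamonds), over 17 without control lineage 0.002 mg/L replicate 2 (circles), and over 17 with group means subtracted (squares). junbb lies at 0.91, 0.94 and 0.97, while ier2b moves from 0.61 to 0.94 when that library is left out and atf3 stays at or below 0.11.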

How the data were processed

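Per the submitters' processing notes, the tools were STAR 2.7.7a, fastp 0.23.2 and DESeq2 1.34.0. The build, the annotation, the counting tool and its strandedness were not given in the sources used here. Reads of overlapping, antisense or closely related genes (such as fosaa beside c-fos) may therefore be misassigned, and no coordinates or sequences are printed. As deposited by the authors, each value is a signal, the reads of a gene over the size factor of its library. Whole reads were recovered from 100% of values within a tolerance of 0.01. In R 4.3.3, limma 3.58.1 modelled log2(value + 1) by 6 group means, with trend and robust moderation, for 18792 genes with a mean of at least 10. All 3 genes passed that filter, also by their mean over the 15 libraries outside the control lineage at 0.002 mg/L (1419.5, 190.0 and 35.5). Tests were two-sided, adjusted by Benjamini-Hochberg over all genes, with a threshold of 0.05. Alternatives left out each library or the low-value filter, fitted only the groups compared, used a pseudocount of 5, TMM scaling or a block for replicate number, or gave the recovered reads to edgeR 4.0.16 or DESeq2 1.42.0; edgeR on 17 libraries and correlations with group means subtracted were added after seeing the data. The procedure was tested on simulated data. They held no library made like the one that stood apart or like those high in gut, pancreas and kidney markers. Other genes named are a fixed set of early-response and feedback genes, up to 4 genes per list with the smallest p past the threshold and a mean of at least 50, and per gene the 5 most alike over 18 libraries; further names were read after their values, and 1 gene that the rule names is not reported here. The genes, gene lists and marker lists were chosen with earlier results of these data known. Marker lists for Leydig cells (2 of 7 symbols measured), spermatogonia, spermatocytes and blood were summed too; the library that stood apart was below the other 17 for Leydig cells, spermatocytes, leukocytes, endothelium and smooth muscle and within their range for spermatogonia and blood.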

Additional observations from a re-analysis of the deposited data

Results flagged for a closer look

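At 0.002 mg/L every BPA-lineage library of dusp2 lay below its lineage's mean at 0 mg/L and every control-lineage library above its own, on the log2 scale. The mean shift of the BPA lineage minus that of the control lineage was -5.87, a difference that was not tested because these libraries chose the gene; 1 of the control-lineage libraries is the one that stood apart, with 4712 normalized reads, and without it the value was -4.40.

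Among the other named genes the response to 0.02 mg/L PFOS was compared between the BPA and control lineages by an interaction term in limma, adjusted over all genes. Of 33 such genes 1 passed from 18 libraries and 9 from 17, beside 1.39% and 14.2% of all genes; at 0.002 mg/L 0 of the 33 passed from 18 or 17 (lowest adjusted p in limma 0.0881 and 0.0506), beside 0% and 0.899%. Of those that passed, all but atf3 and elk4 were named because they passed in a comparison that shares the control-lineage or BPA-lineage libraries of this term, so their values are a description and not independent evidence. elk4, of the fixed set, also passed in such comparisons from 17 libraries, so its value is not independent of them either. The control lineage at 0 mg/L, in which gut, pancreas and kidney markers were high in replicates 1 and 3, enters each of these terms, and its part in them was not tested. btg1 differed by 3.40, with an adjusted p of 0.0268 over 18 libraries and 0.0035 over 17, and had a change of 0.55 in the BPA lineage and -2.84 in the control lineage. Another 8 of the genes named here passed from 17 libraries only. They were atf3 (2.64, adjusted p = 0.0212, with 1.099 in the BPA lineage and -1.54 in the control lineage), elk4 (2.87, adjusted p = 0.0192), araf (2.83, adjusted p = 0.00963), mapk11 (2.03, adjusted p = 0.0188) and mapk12a (2.55, adjusted p = 0.0464), all with a change above 0 in the BPA lineage and below 0 in the control lineage. The term was negative for raf1a (-1.02, adjusted p = 0.0181), map2k7 (-0.93, adjusted p = 0.0216) and ELK3 (-1.67, adjusted p = 0.00396). The same term is not reported as a test for c-fos, fosb and dusp2, because libraries that chose these genes enter it.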

How the results depend on the processing

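None of the 6 tested values of fosb and dusp2 passed under any of 156 alternatives (lowest adjusted p 0.310). The signs of small differences turned. In the BPA lineage at 0.002 mg/L c-fos was -0.32, -0.33 and -0.30 and fosb 0.037, 0.025 and 0.056 by edgeR, DESeq2 and edgeR on 17 libraries, and between lineages at 0.02 mg/L c-fos was 0.52, 0.48 and 0.48. With 1 library left out, the ranges for c-fos, fosb and dusp2 were -1.28 to 1.14, -1.82 to 0.15 and -1.90 to -0.56 in the BPA lineage at 0.002 mg/L, -1.68 to 0.74, -2.00 to -0.77 and -1.56 to -0.48 at 0.02 mg/L, and -1.60 to 0.14, -0.41 to 0.47 and -1.0 to 0.093 between lineages at 0.02 mg/L. Described values ranged from 5.57 to 6.40, 1.19 to 4.40 and 3.10 to 5.55 in the control lineage at 0.002 mg/L (fosb 4.79 by edgeR on 17; dusp2 6.17, 6.47 and 3.15 by the 3 count fits). Between lineages at 0.002 mg/L fosb ran from -2.97 to 0.24 (positive without control replicate 1) and dusp2 from -5.85 to -3.40 (-6.47 by DESeq2, -3.13 by edgeR on 17).

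Counts of genes called moved more. At 0.002 mg/L in the control lineage 0 were called with the 2 groups alone, 3132, 4733 and 705 by edgeR, DESeq2 and edgeR on 17, and 1 to 5527 with 1 library left out (1 and 3 without replicate 3 or 1 at 0 mg/L, 5527 without replicate 1 at 0.002 mg/L). At 0.02 mg/L there were 8 (pseudocount 5), 1657 (groups alone), 79, 1267 and 2296, and 1 to 2409. In the BPA lineage at 0.002 and 0.02 mg/L groups alone gave 5 and 4 and DESeq2 10 and 144, with 0 to 1 and 0 to 77. Between lineages at 0 mg/L there were 73 (TMM), 1892 (groups alone), 2, 1338 and 2081, and 0 to 1927; at 0.002 mg/L 804 by DESeq2 and 0 to 992 (992 without control replicate 1); at 0.02 mg/L 1 by edgeR and 30 by DESeq2, and 0 to 4. The r of fosb and dusp2 was 0.85 without the library that stood apart, 0.81 in the BPA lineage, -0.15 with group means subtracted and 0.79 so over 17. The causes were not tested.

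Replicate numbers were not treated as pairs: 2 of 21 same-numbered pairs correlated over 0.1, and in 8 of 21 checks a library correlated best with its own number. Both pairs over 0.1 were in a tested comparison, that of the lineages at 0.02 mg/L (r = 0.23, 0.31 and 0.09 for replicates 1, 2 and 3). With the replicate block limma called 825 genes for the control lineage at 0.002 mg/L and 1 between lineages at 0 mg/L; no call on fosb or dusp2 changed. Depth limits dusp2, with 10 reads in its lowest library.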
